A study of Mus musculus with 9 samples.

Results

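The mouse GRO-seq table held 46 rows of forkhead genes among its 24505 genes, taken by gene symbol (Foxa to Foxs followed by a digit), including 2 RNA genes on the strand opposite a forkhead gene, Foxd2os and Foxl2os. The same names were the nearest gene of 228 of 35798 regions with more H3K27me3 in the RANKL culture and of 49 of 13607 regions with more in the WENRC culture. GRO-seq (global run-on sequencing) reads RNA that engaged polymerases are making in isolated nuclei, and H3K27me3 is a histone mark of repressed chromatin, written by the Polycomb complex PRC2. The cultures were mini-guts, organoids grown from mouse duodenum. GRO-seq was done on RANKL cultures (cell type labelled intestinal M cell), ENRI cultures (labelled enterocyte) and WENRC cultures (labelled intestinal stem cell), with 2 libraries each. H3K27me3 was measured in RANKL (2 libraries, pooled by the authors) and WENRC (1 library). RANKL is the name of a cytokine that drives M cell formation. The labels used here do not spell out the culture names, and strain, genotype, age and sex are not given in the sources used here. The ENRI and WENRC libraries carry mouse 1 and mouse 2, the RANKL libraries only a replicate number, so p-values measure the spread between these libraries.

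Forkhead factors share a winged-helix DNA-binding domain and bind a common core motif, yet serve very different tissues. FoxA factors open chromatin of endoderm organs, FoxO factors are kept out of the nucleus when insulin and growth factor signals activate Akt, FoxM1 drives genes of mitosis, and FoxP factors act mostly as repressors. In the gut, FoxF and FoxL1 factors belong to the mesenchyme under the epithelium, where Hedgehog signals from the epithelium control them. Genes of developmental regulators that a tissue does not use are common carriers of H3K27me3.

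The labelled cell types were checked on marker lists. All 8 M cell markers were called higher in RANKL than in ENRI, and 7 of 8 than in WENRC. Of 7 crypt stem cell markers, 6 were higher in WENRC than in ENRI, and 4 were also higher in RANKL than in ENRI. Enterocyte markers were lower in WENRC than in ENRI for 7 of 8. Of 8 mesenchyme markers, 6 were under the low-value filter (Col1a1, Col1a2, Col3a1, Dcn, Pdgfra and Vim). Other epithelial markers also moved with the cultures: 4 of 8 enterocyte markers were lower in RANKL than in ENRI and 4 of 8 higher than in WENRC, 3 of 5 goblet markers were higher in RANKL than in WENRC and 4 of 5 lower in WENRC than in ENRI, and 2 of 5 Paneth markers were higher in RANKL in both comparisons. Their part in the forkhead values was not tested. In bulk cultures fewer cells of a type and less RNA per cell cannot be told apart. Per the file header, only the RANKL libraries were sequenced again and their reads merged, so that sequencing run and culture cannot be told apart, and GRO-seq depth is unknown.

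Of the 46 forkhead genes, 23 passed the filter on low values (at least 2 libraries at or above log2 of 10) and 23 did not. The values are the authors' normalized log2 values summed over a whole gene, and they draw low genes together, so that changes of low genes are understated. Means over the 6 libraries ran from 3.86 for Foxh1 to 13.16 for Foxp1 among the tested genes, and no library of an untested gene was above 3.27 (Foxf1). Foxb2 and Foxe3 were listed at 0 in all 6 libraries. The untested genes were FoxB, FoxC2, FoxD, FoxE, FoxF, FoxG, FoxI, FoxL, FoxN4, FoxR and FoxS genes. Many of these are known from brain, craniofacial tissue, kidney, ear or mesenchyme. Whole subfamilies were tested for FoxA, FoxJ, FoxK, FoxO and FoxP. Since long genes gather more reads, levels between genes are compared per kb of gene. On that log2 level per kb, averaged over the 6 libraries, Foxq1 (5.94), Foxa1 (5.75) and Foxp4 (5.60) were highest, followed by Foxo3 (4.86) and Foxo1 (4.58). Foxp1, first by the whole-gene value, had a level per kb of 3.94, and Foxp2 had the lowest of the tested genes at -3.49.

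**Figure D1:**
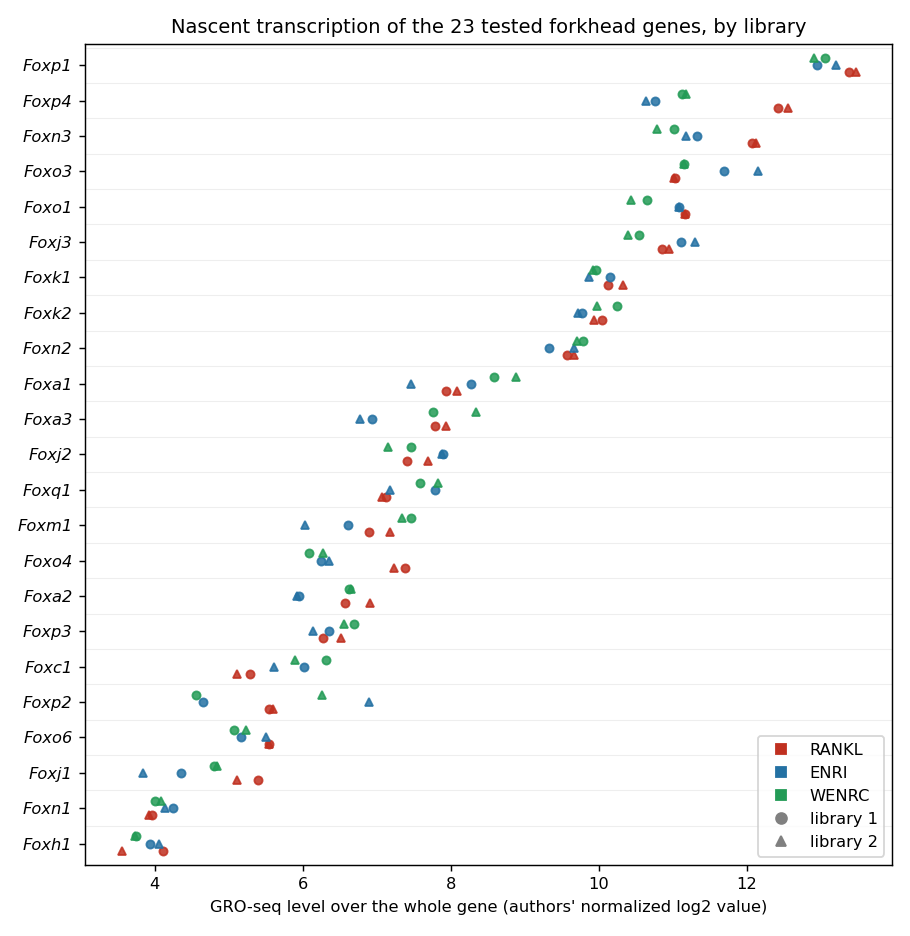
GRO-seq level of the 23 tested forkhead genes (authors' normalized log2 value over the whole gene) in each of the 6 libraries; colour marks the culture, circles library 1 and triangles library 2. Foxp4 in RANKL (12.42 and 12.55) sits apart from the 4 other libraries (10.64 to 11.18), and Foxp2 is split within ENRI (4.65 and 6.90) and within WENRC (4.56 and 6.26).

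Between RANKL and ENRI, 7 of the 23 tested forkhead genes were called by limma at an adjusted p under 0.05, against 20.9% of all 16563 genes tested. Of these, 6 were higher in RANKL (Foxa2, Foxa3, Foxj1, Foxn3, Foxo4 and Foxp4; 10.4% of all genes were called higher) and 1 was lower (Foxo3; 10.5% lower). Between RANKL and WENRC, 4 of 23 were called, all higher in RANKL (Foxn3, Foxo1, Foxo4 and Foxp4), where 12.1% of all genes were called, 8.53% higher and 3.62% lower. Between WENRC and ENRI, 4 of 23 were called against 14.6% of all genes: Foxa3 and Foxm1 were higher in WENRC (4.85% of all genes higher) and Foxj3 and Foxo3 lower (9.74% lower). No test was made of these shares, which rest on few genes. The median log2 change over the 23 genes was 0.15, 0.10 and -0.07 in the 3 comparisons, and over all genes 0.00, -0.01 and -0.01. The 3 comparisons share their libraries. An adjusted p under 0.05 in the authors' deposited table was held by 5, 8 and 4 of the 23 genes, and by 19.6%, 27.8% and 12.5% of all tested genes. Both RANKL libraries lay above all 4 others for 7 of the 23 genes (Foxj1, Foxn3, Foxo1, Foxo4, Foxo6, Foxp1 and Foxp4), against 20.3% of all genes, and below all 4 for 4 genes (Foxc1, Foxn1, Foxo3 and Foxq1), against 16.9%.

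These counts moved with single libraries, and the calls over all genes rose and fell in the same directions in each of the 3 comparisons. Without either RANKL library no forkhead gene was called in any comparison: between RANKL and ENRI the lowest limma adjusted p was then 0.0547 or 0.0614, with 7 or 6 genes at an unadjusted p under 0.05, and over all genes the calls fell from 3464 to 111 or 64. Between RANKL and WENRC, 5 or 4 forkhead genes then had an unadjusted p under 0.05, and between WENRC and ENRI 9 in each case. All 48 called changes followed for forkhead and pathway genes were lost without either RANKL library. Without either WENRC library 4 genes stayed called between RANKL and ENRI, and 0 between RANKL and WENRC (5 at an unadjusted p under 0.05 in each case) and between WENRC and ENRI (9 or 6). Without ENRI 1 or ENRI 2 the counts were 8 and 8, 8 and 9, and 9 and 5 in the 3 comparisons. WENRC and ENRI libraries share mice. A fit of all 6 libraries with the mouse as a block called 1 forkhead gene between them, Foxa3 (limma adjusted p = 0.0407). Over all 16563 genes it called 1506. In this fit, the mouse block below, the RANKL libraries were blocked by replicate number, which is not a mouse. With the block in only the 4 WENRC and ENRI libraries, 0 forkhead genes were called (lowest adjusted p = 0.0901), and 124 of all genes. Another scaling changed the split: after recentring on the upper quartile, which moved the median change of all genes between RANKL and WENRC from -0.01 to -0.12, 4 forkhead genes were higher and 1, Foxc1, lower in RANKL than in WENRC, and 5 were higher and 2 lower in WENRC than in ENRI. Quantile normalization gave 3 higher and 0 lower, and 5 higher and 1 lower. Of all genes called between RANKL and WENRC, 70.2% were higher in RANKL in the values as deposited, 53.3% after upper quartile recentring and 58.7% after quantile normalization. For calls between WENRC and ENRI, 33.2%, 54.1% and 51.7% were higher in WENRC.

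**Figure D2:**
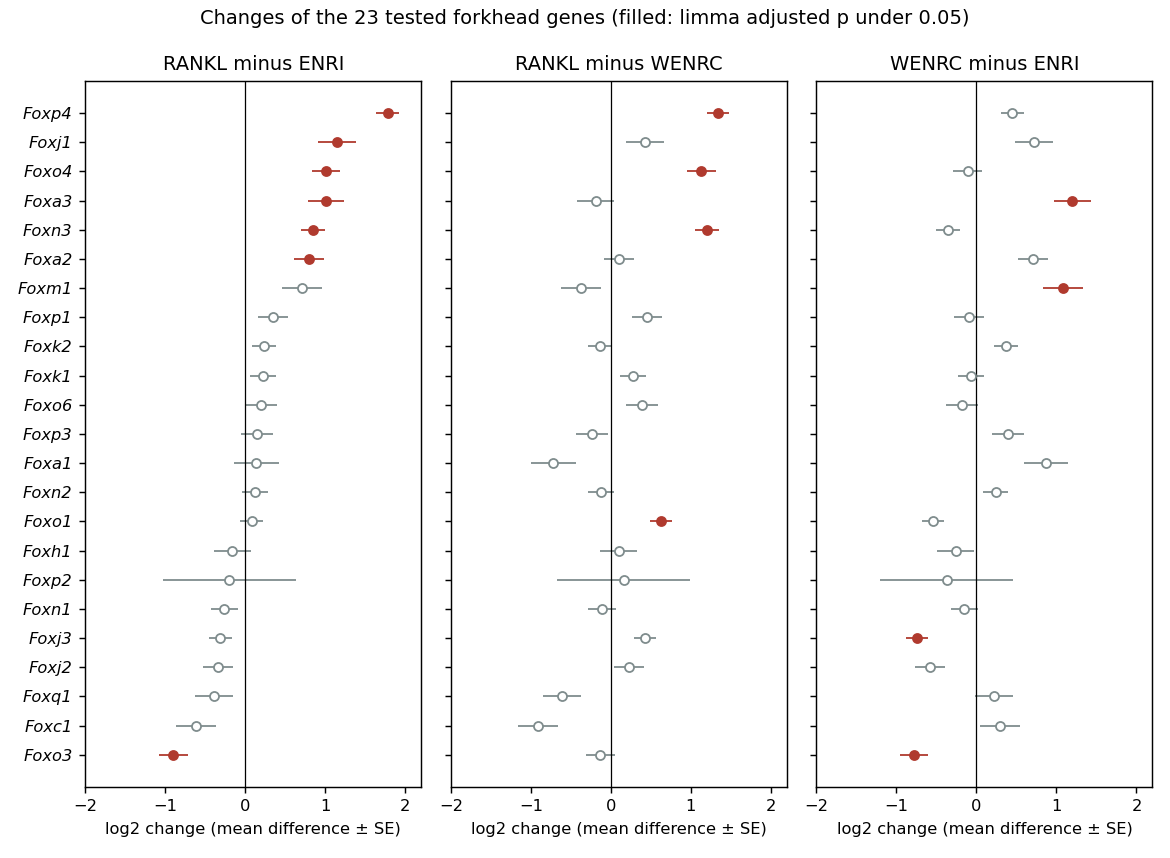
Log2 change of the 23 tested forkhead genes in the 3 comparisons, as difference of means with its SE from limma; filled points have an adjusted p under 0.05. Foxp4 is farthest to the right in both comparisons of RANKL, at 1.78 and 1.34, and Foxo3 farthest to the left against ENRI, at -0.90.

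Among the FoxP genes, Foxp4 had the largest difference of any tested forkhead gene in both comparisons of RANKL. Foxp4 (NM_001110825, mm9 chr17:48004082-48061581, minus strand) encodes a FoxP repressor of lung and gut epithelium. Its values were 12.42 and 12.55 in RANKL, 10.76 and 10.64 in ENRI, and 11.12 and 11.18 in WENRC. Both RANKL libraries lay above all 4 others by more than the spread within any culture. Foxp4 was higher in RANKL than in ENRI by 1.78 (SE 0.14, limma adjusted p = 0.00215) and than in WENRC by 1.34 (SE 0.14, adjusted p = 0.00522). WENRC and ENRI differed by 0.45 (adjusted p = 0.0833). The authors' deposited table gives 2.01 (adjusted p = 3.33e-13) and 1.50 (adjusted p = 3.97e-31) for the comparisons of RANKL. Per kb of gene, the mean log2 level of Foxp4 was 6.64 in RANKL, 4.86 in ENRI and 5.30 in WENRC.

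Foxp1, Foxp2 and Foxp3 were not called in any comparison. Foxp1 (NM_001347345, mm9 chr6:98875336-99470987, minus strand), the paralog that represses alongside Foxp4 in lung epithelium, gave 13.38 and 13.47 in RANKL, 12.94 and 13.20 in ENRI, and 13.06 and 12.90 in WENRC. Both RANKL libraries were again the highest, with differences of 0.35 (limma adjusted p = 0.233) and 0.45 (adjusted p = 0.185). In the authors' deposited table the difference from WENRC, 0.49, has an adjusted p of 2.37e-04. Foxp2, known from neurons and lung, gave 5.54 and 5.60 in RANKL but 4.65 and 6.90 in ENRI, and 4.56 and 6.26 in WENRC. The mouse 2 library was the higher one in both cultures, and the SDs of 1.60 and 1.20 were the largest of any tested forkhead gene. Foxp3, the regulatory T cell factor, had values between 6.14 and 6.70 in all 6 libraries, but it overlaps Ppp1r3fos on the same strand and Ccdc22 on the other. The T cell gene Cd3e was under the low-value filter, and what share of the Foxp3 value belongs to its neighbours was not tested.

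Among the FoxN and FoxJ genes, Foxn3 moved with the RANKL culture in both comparisons. Foxn3 (NM_183186, mm9 chr12:100433304-100688284, minus strand) is a repressor linked to cell cycle checkpoints. It had 12.07 and 12.12 in RANKL, 11.32 and 11.18 in ENRI, and 11.01 and 10.79 in WENRC, with no overlap between RANKL and the rest. The difference was 0.85 from ENRI (SE 0.15, limma adjusted p = 0.0153) and 1.20 from WENRC (SE 0.15, adjusted p = 0.00805). Foxj1 (NM_008240, mm9 chr11:116192018-116196668, minus strand), the master regulator of motile cilia, stood at 5.40 and 5.11 in RANKL, 4.36 and 3.85 in ENRI, and 4.80 and 4.85 in WENRC. It was higher in RANKL than in ENRI by 1.15 (SE 0.24, adjusted p = 0.0243), in the range where this table compresses changes. The authors' deposited table gives 3.17 with an adjusted p of 0.0757.

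Foxj3 (NM_001290696, mm9 chr4:119212266-119301724, plus strand), a broadly expressed FoxJ factor, ran the other way, with ENRI highest. Its values were 10.85 and 10.95 in RANKL, 11.11 and 11.30 in ENRI, and 10.54 and 10.39 in WENRC. The 3 cultures did not overlap, and the difference between WENRC and ENRI of -0.74 (SE 0.14) had a limma adjusted p of 0.0261, which was 0.0565 with the mouse as a block. Foxj2, Foxn1, Foxn2, Foxh1, Foxk1 and Foxk2 were called in none of the 3 comparisons.

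The 4 FoxO genes did not move together. Foxo4 (NM_018789, mm9 chrX:98449867-98456212, plus strand) had 7.38 and 7.24 in RANKL, 6.25 and 6.35 in ENRI, and 6.09 and 6.28 in WENRC. It was higher in RANKL by 1.01 over ENRI (SE 0.18, limma adjusted p = 0.0158) and by 1.13 over WENRC (SE 0.18, adjusted p = 0.0157), and ENRI and WENRC overlapped. Foxo1 (NM_019739, mm9 chr3:52072259-52154031, plus strand) was low in WENRC alone, with 11.17 and 11.16 in RANKL, 11.08 in both ENRI libraries, and 10.65 and 10.43 in WENRC. Its difference between RANKL and WENRC was 0.63 (SE 0.14, adjusted p = 0.0394), a call lost under 8 of 15 alternatives, among them quantile normalization (adjusted p = 0.112).

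Foxo3 (NM_019740, mm9 chr10:41905592-41996548, minus strand) was instead high in ENRI. It had 11.03 and 11.01 in RANKL, 11.69 and 12.15 in ENRI, and 11.15 in both WENRC libraries. Both ENRI libraries were above the 4 others. Foxo3 was lower in RANKL than in ENRI (log2 change -0.90, SE 0.18, limma adjusted p = 0.0224). That call was lost under 6 of 15 alternatives, among them the fit of only the 4 libraries compared. The change from ENRI to WENRC of -0.78 (SE 0.18, adjusted p = 0.0434) was lost under 11 of 15 alternatives. Among these were the mouse block (adjusted p = 0.0685), upper quartile recentring (0.0662) and quantile normalization (0.164). Foxo6, a FoxO gene known mostly from neurons and liver, lay between 5.07 and 5.54, with both RANKL libraries at 5.54 and no call.

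FoxO activity is set by signalling, so 22 regulators and 15 targets of FoxO factors were looked at. Of the regulators, 3 were higher and 3 lower in RANKL than in ENRI, and 6 higher and 0 lower than in WENRC. Among all genes tested, the shares called higher and lower in RANKL were 10.4% and 10.5% against ENRI, and 8.53% and 3.62% against WENRC. Of all calls against WENRC, 70.2% were higher in RANKL as deposited and 53.3% after upper quartile recentring. Pik3ca, the catalytic subunit of the PI3 kinase above Akt, was higher in RANKL than in ENRI by 1.40 (limma adjusted p = 0.00341) and than in WENRC by 1.54 (adjusted p = 0.00316). Sgk1, another FoxO kinase, was lower in RANKL than in ENRI (-1.45, adjusted p = 0.0171), as was Ywhaz, a 14-3-3 protein that holds FoxO in the cytoplasm (-0.78, adjusted p = 0.0167). Between WENRC and ENRI 4 regulators were lower and 0 higher, against 9.74% and 4.85% of all genes. Ywhaz (-0.88, limma adjusted p = 0.0175) and the insulin receptor substrate Irs2 (-1.18, adjusted p = 0.0223) were among the 4.

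Of the 15 FoxO targets, 14 were tested, with Igfbp1 under the filter. They split evenly between RANKL and ENRI, with 3 higher and 3 lower (median change -0.26), against 10.4% and 10.5% of all genes. The cell cycle inhibitor Cdkn1b was higher in RANKL by 1.05 (limma adjusted p = 0.00848) and the death gene Bcl2l11 by 1.26 (adjusted p = 0.0127). Pck1, an enzyme of glucose production, was lower in RANKL (-4.98, adjusted p = 0.00522), and Ccng2, a cyclin of quiescent cells, changed by -1.01 (adjusted p = 0.00632). Against WENRC, 3 targets were higher in RANKL and 0 lower (median 0.42), including Bcl2l11 (1.56, limma adjusted p = 0.00961) and the repressor gene Bcl6 (1.04, adjusted p = 0.0138). The shares of all genes against WENRC were 8.53% higher and 3.62% lower. From ENRI to WENRC 5 targets were lower and 0 higher (median -0.52), against 9.74% and 4.85% of all genes. Pck1 changed by -5.13 (limma adjusted p = 0.0102) and Ccng2 by -1.69 (adjusted p = 0.00624). Pck1 was at 4.03 and 4.05 in RANKL, 8.05 and 9.98 in ENRI, and 4.06 and 3.71 in WENRC, so high in ENRI alone. The summed level of 8 enterocyte markers was also highest there, 4.73e+04 and 8.26e+04 against 2.30e+04 and 2.55e+04 in RANKL and 6.88e+03 and 2.65e+03 in WENRC, on the linear scale. Its part in the FoxO target values was not tested.

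Of the FoxA genes, Foxa2 and Foxa3 were lowest in ENRI. Foxa3 (NM_008260, mm9 chr7:19598632-19608888, minus strand), an endoderm factor of liver and gut, gave 7.79 and 7.94 in RANKL, 6.93 and 6.77 in ENRI, and 7.76 and 8.34 in WENRC. RANKL and WENRC overlapped, and ENRI lay below both. Foxa3 was higher than in ENRI by 1.01 in RANKL (SE 0.23, limma adjusted p = 0.0308) and by 1.20 in WENRC (SE 0.23, adjusted p = 0.0261). The call in WENRC was kept with the mouse block over all 6 libraries. It was lost with the block in only the 4 libraries of WENRC and ENRI.

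Foxa2 (NM_010446, mm9 chr2:147868613-147872705, minus strand), required for the gut endoderm to form, was also lowest in ENRI. Its values were 6.57 and 6.91 in RANKL, 5.95 and 5.92 in ENRI, and 6.63 and 6.65 in WENRC. The change between RANKL and ENRI was 0.80 (SE 0.19, limma adjusted p = 0.0361) and that between WENRC and ENRI 0.71 (adjusted p = 0.0622). The call between RANKL and ENRI was lost under 8 of 15 alternatives, among them the authors' deposited table (1.33, adjusted p = 0.0858). Foxa1 had 7.94 and 8.08 in RANKL, 8.27 and 7.47 in ENRI, and 8.59 and 8.88 in WENRC. Both WENRC libraries were the highest, but the differences of -0.72 between RANKL and WENRC (adjusted p = 0.153) and 0.87 between WENRC and ENRI (adjusted p = 0.0916) did not pass. In the authors' deposited table the difference between RANKL and WENRC is -0.93 with an adjusted p of 0.00334.

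Of 14 transcription factors that work with FoxA in gut endoderm, 3 were higher and 3 lower in RANKL than in ENRI. In RANKL 4 were higher and 1 lower than in WENRC, and 2 were lower in WENRC than in ENRI. Over all genes, 10.4% were higher and 10.5% lower in RANKL than in ENRI, and 8.53% and 3.62% than in WENRC. Between WENRC and ENRI 9.74% of all genes were lower in WENRC. Onecut2, a partner in endoderm differentiation, was higher in RANKL than in both other cultures, by 1.05 (limma adjusted p = 0.019) and 1.61 (adjusted p = 0.00814). Elf3, an epithelial Ets factor, was lower in RANKL than in both, with changes of -0.95 (adjusted p = 0.0149) and -0.79 (adjusted p = 0.0336). The caudal homeobox gene Cdx1 was higher in RANKL than in ENRI (1.20, adjusted p = 0.0264), and Klf4, a factor of mature epithelium, was lower (-1.82, adjusted p = 0.0142). Hnf4g, a nuclear receptor of the villus, had a mean of 13.10 ± 0.02 (SD, n = 2) in RANKL, 13.00 ± 0.21 in ENRI and 11.31 ± 0.32 in WENRC, so WENRC alone was low.

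Foxm1 (NM_008021, mm9 chr6:128313012-128325904, plus strand) had 6.89 and 7.18 in RANKL, 6.61 and 6.03 in ENRI, and 7.47 and 7.34 in WENRC. ENRI was lowest and WENRC highest, and none of the cultures overlapped. Foxm1 was higher in WENRC than in ENRI by 1.08 (SE 0.25, limma adjusted p = 0.0407), a call lost with the mouse as a block (adjusted p = 0.0618), and it overlaps 4933413G19Rik on the same strand. Of 15 FoxM1 targets, genes of the G2 phase and mitosis, 10 were higher and 0 lower in WENRC than in ENRI (median change 0.89). With the mouse as a block 6 were higher. The shares of all genes were 4.85% higher and 9.74% lower. A fit of only the 4 WENRC and ENRI libraries called 0 of all 16563 genes, so these calls rest on a spread shared with RANKL. In RANKL, 5 targets were higher and 0 lower than in ENRI (median 0.47), against 10.4% and 10.5% of all genes. Between RANKL and WENRC 0 of 15 were called by limma, with a median of -0.35, while 4 had an unadjusted p under 0.05 and 5 were called by the authors' deposited values. Upper quartile recentring called 3 of them lower in RANKL, and quantile normalization 2. Top2a, the mitotic topoisomerase, was higher in WENRC than in ENRI by 1.70 (adjusted p = 0.0209) and Cdca8, a chromosome passenger protein, by 1.08 (adjusted p = 0.0188). Cdc25b, a phosphatase of mitotic entry, was higher in RANKL than in ENRI by 1.71 (adjusted p = 0.0127).

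FoxF and FoxL1 factors mark gut mesenchyme, and their genes were all under the low-value filter. Foxl1 lay between -1.98 and -1.96, Foxf2 between -1.50 and -1.47, and Foxf1 between 2.86 and 3.27. The Hedgehog axis above them was tested for 10 of 12 genes, with Bmp4 and Wnt5a under the filter. Ihh, the epithelial Hedgehog ligand, was lower in RANKL than in ENRI (-0.94, limma adjusted p = 0.0108), and the signal transducer Smo was higher (1.35, adjusted p = 0.0228). Against WENRC limma called 1 gene, the effector Gli1, lower in RANKL (-0.92, adjusted p = 0.0421), and between WENRC and ENRI 1 gene, the receptor Ptch1, higher in WENRC (0.66, adjusted p = 0.0497, and 0.0603 with the mouse as a block). In the authors' deposited table, those comparisons have calls for 2 and 0 genes of this axis. By limma, 20.9% of all genes were called between RANKL and ENRI, 12.1% between RANKL and WENRC and 14.6% between WENRC and ENRI. The summed linear level of the 8 mesenchyme markers was 747 and 779 in RANKL, 342 and 392 in ENRI, and 425 and 276 in WENRC. Of the 2 tested markers, the pericyte receptor gene Pdgfrb was higher in RANKL by 1.94 over ENRI (adjusted p = 0.0143) and 2.45 over WENRC (adjusted p = 0.0102), and the smooth muscle actin gene Acta2 had differences of -0.39 (adjusted p = 0.36) and -0.60 (adjusted p = 0.211). Their part in the Hedgehog values was not tested.

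H3K27me3 was compared between pooled RANKL and the single WENRC library, so differences in the mark have no replicate check. The authors called each table of regions with the other culture as control and kept regions with a ratio of tags of at least 2, after scaling WENRC tags by 0.9. Of the 46 forkhead genes, 33 were nearest to at least 1 RANKL-higher region, against 33.7% of all genes in the GRO-seq table. The genes were split by transcription: 22 of the 23 untested forkhead genes had a RANKL-higher region, as did 11 of the 23 tested ones, where the shares of all untested and tested genes were 36.6% and 32.3%. WENRC-higher regions were nearest to 19 forkhead genes (24.0% of all genes), 12 untested (25.6% of all untested genes) and 7 tested (23.3%). Foxi1 and Foxn3 had WENRC-higher regions only, 17 genes had both kinds, and 11 had neither. The 11 without a region were all tested genes: Foxa3, Foxh1, Foxj1, Foxj3, Foxk2, Foxm1, Foxn1, Foxn2, Foxo3, Foxo4 and Foxp4. Over all tested genes, 67.7% had no RANKL-higher region. The shares of all genes with both kinds or neither were not counted. No forkhead region of one table overlapped one of the other by even 1 bp. This follows largely from the calling, which kept ratios of at least 2 in opposite directions.

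RANKL-higher regions of forkhead genes covered 195289 bp and WENRC-higher ones 30243 bp. RANKL-higher regions were also more numerous over the whole genome, 35798 against 13607, whose covered lengths were not counted. The authors' fold had a median of 2.84 over the RANKL-higher regions of forkhead genes and 2.92 over that whole table, and of 2.80 and 3.30 for WENRC-higher regions. Most regions were intergenic, 75% of the RANKL-higher ones (53.4% of the whole table) and 93.9% of the WENRC-higher ones (61.3%). Of all RANKL-higher regions, 20.8% lay on chromosome X, against 10.6% of all WENRC-higher regions, while 5 of the 228 forkhead regions did (3 of Foxp3 and 2 of Foxr2).

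**Figure D3:**
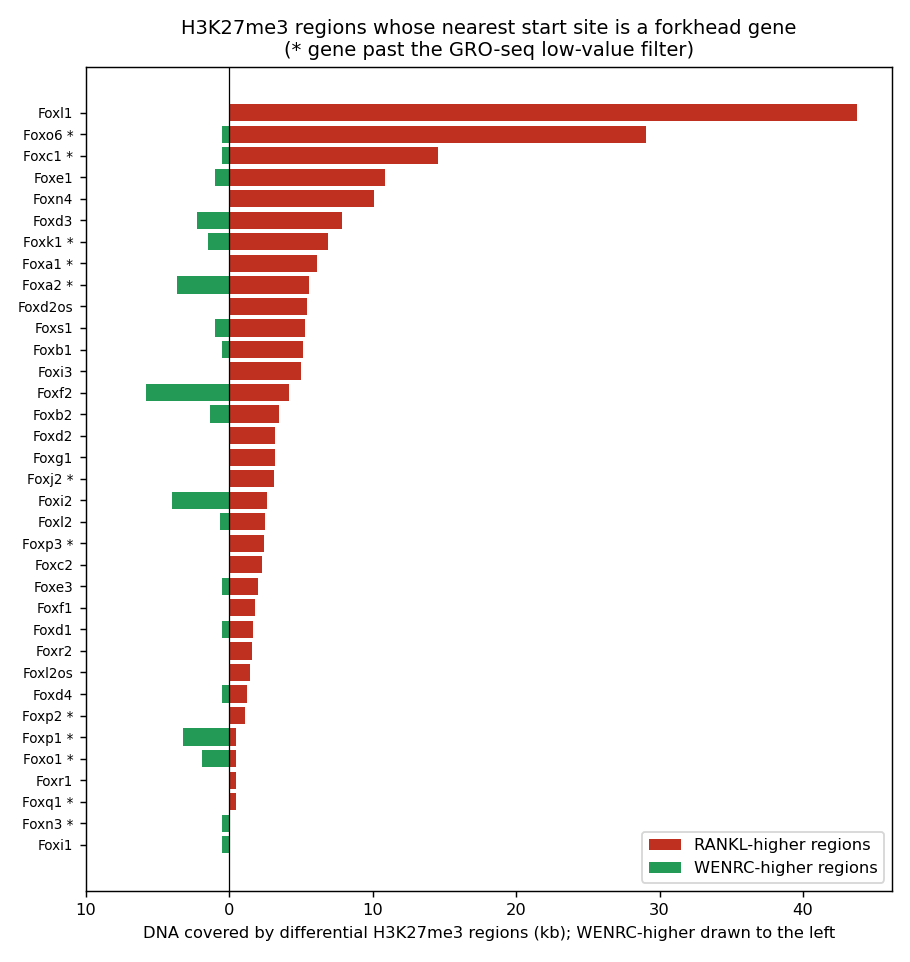
DNA covered by differential H3K27me3 regions (kb) whose nearest start site is a forkhead gene, RANKL-higher to the right and WENRC-higher to the left; an asterisk marks genes past the GRO-seq low-value filter. Foxl1 (43753 bp) and the tested genes Foxo6 (29076 bp) and Foxc1 (14575 bp) have the longest bars to the right, and Foxf2 (5823 bp) the longest to the left.

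The gene with the most RANKL-higher DNA was Foxl1, with 43 regions over 43753 bp reaching to 194495 bp from its start site. Over these regions RANKL had 53.2 tags per kb and WENRC 18.6. Foxo6 followed with 31 regions over 29076 bp (63.0 and 24.1 tags per kb), and Foxc1 with 18 regions over 14575 bp (54.6 and 16.2). Within 5 kb of the start site lay 2 of 43 Foxl1, 4 of 31 Foxo6 and 2 of 18 Foxc1 regions. All regions were credited to a gene by nearest start site. Foxc1, a factor of mesenchyme and eye, also had the region of highest fold, 12.22, which lay over 200 kb downstream of the gene (mm9 chr13:32125878-32126519, 33 tags in RANKL and 2.7 in WENRC). All 12 Foxc1 regions beyond 200 kb are annotated to an intron. Foxc1 itself is 3989 bp long, so they lie within another gene and are credited to Foxc1 only by nearest start site. Some far regions of Foxa1 and Foxk1 also carry an intron annotation outside these genes. Foxe1 (10866 bp), Foxn4 (10123 bp), Foxd3 (7887 bp), Foxk1 (6854 bp) and Foxa1 (6100 bp) came next. The nearest region of Foxk1 was 67949 bp and that of Foxa1 12270 bp from the start site, so these 2 transcribed genes had none at their promoters.

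WENRC-higher regions were fewer in all. Foxf2 had 9 over 5823 bp (22.0 tags per kb in RANKL, 54.1 in WENRC), Foxi2 had 6 over 3988 bp and Foxa2 had 6 over 3638 bp (8.8 and 36.4). Foxp1 (3190 bp), Foxd3 (2261 bp), Foxo1 (1889 bp), Foxk1 (1500 bp) and Foxb2 (1326 bp) were next. At Foxa2, 1 region at -22469 bp from the start site held 1 tag in RANKL and 20.7 scaled tags in WENRC (mm9 chr2:147894924-147895424, fold 20.71). Another, 634 bp upstream of its start site, had 5 tags in RANKL and 16.2 in WENRC. These low tag numbers leave wide counting error. Foxa2 transcription was 0.10 higher in RANKL than in WENRC (limma adjusted p = 0.793).

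Within 5 kb of a start site, 34 RANKL-higher regions belonged to 18 forkhead genes (19.1% of all genes), 14 untested (21.3% of all untested genes) and 4 tested (18.0%), and 4 WENRC-higher regions to 4 genes (5.44%). Within 1 kb, 9 forkhead genes had a RANKL-higher region (10.5% of all genes): the untested Foxb2, Foxc2, Foxd2, Foxe1, Foxf1, Foxl1 and Foxn4, and the tested Foxc1 and Foxo6 (10.6% of all untested and 10.4% of all tested genes). Foxa2 and Foxs1 had a WENRC-higher region there (1.24% of all genes). The strongest by tags was at Foxc1 (mm9 chr13:31897919-31900649), with 273 tags in RANKL and 111.6 scaled tags in WENRC, a fold of 2.45. It spanned the start site, from -596 to 2134 bp. The Foxd2 region (mm9 chr4:114580314-114582494) had 166 and 77.4 tags (fold 2.14), and the Foxn4 region (mm9 chr5:114722347-114724279) 189 and 88.2 (fold 2.14). Foxe1 had 183 and 85.5 tags (fold 2.14), Foxo6 94 and 31.5 (2.98), Foxf1 71 and 22.5 (3.15), Foxc2 45 and 18.9 (2.38), Foxb2 58 in RANKL (2.15) and Foxl1 45 and 21.6 (2.08). The Foxb2 and Foxl1 regions lay beside the start site, not over it. WENRC also had tags in each of these regions, and whether they exceeded background was not tested.

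Neither tested gene with a RANKL-higher region at its start site was called between RANKL and WENRC. Foxc1 (NM_008592) had 5.29 and 5.11 in RANKL, 6.02 and 5.61 in ENRI, and 6.32 and 5.90 in WENRC. Both RANKL libraries were below all 4 others. The difference from WENRC was -0.91 (SE 0.25, limma adjusted p = 0.0672), which passed after upper quartile recentring and in the fit of only the 4 libraries compared, and the authors' deposited table gives -1.88 (adjusted p = 0.0144). Foxo6, with the region over its start site, was 0.39 higher in RANKL than in WENRC (adjusted p = 0.269). Foxp4, Foxo4 and Foxn3, the genes higher in RANKL in both comparisons, had no RANKL-higher region at any distance, as was the case for 12 of the 23 tested forkhead genes and 67.7% of all tested genes. Foxo1, also called higher than in WENRC, had 1, at 68633 bp.

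Promoter letters are shown for 3 genes with a RANKL-higher region over the start site (Foxc1, Foxd2 and Foxn4) and for Foxp4, with none. All 4 are rich in CpG dinucleotides, the letters to which PRC2 is known to be drawn when a promoter is silent. Foxp4 does not stand for every gene without a region. Among genes in neither table of regions, counts from 250 bases before to 50 after the start ran from 8 (Foxn1) to 59 (Foxk2). Each line gives the 250 bases before the start site, 5′ to 3′ on the gene's strand, with every CG in capitals. They are RefSeq sequences on GRCm38.p6, a later build than the mm9 of the regions, at chr13:31806396-31806645 (plus strand), chr4:114908899-114909148 (minus), chr5:114273762-114274011 (minus) and chr17:47924633-47924882 (minus). For these 4 genes the distance from start site to gene end was equal in both builds.
Foxc1: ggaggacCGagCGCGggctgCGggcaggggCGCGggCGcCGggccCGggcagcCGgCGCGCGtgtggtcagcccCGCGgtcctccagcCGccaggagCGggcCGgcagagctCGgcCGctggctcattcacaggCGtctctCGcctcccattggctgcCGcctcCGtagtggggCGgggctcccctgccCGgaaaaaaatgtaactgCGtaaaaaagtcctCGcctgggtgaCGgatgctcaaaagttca
Foxd2: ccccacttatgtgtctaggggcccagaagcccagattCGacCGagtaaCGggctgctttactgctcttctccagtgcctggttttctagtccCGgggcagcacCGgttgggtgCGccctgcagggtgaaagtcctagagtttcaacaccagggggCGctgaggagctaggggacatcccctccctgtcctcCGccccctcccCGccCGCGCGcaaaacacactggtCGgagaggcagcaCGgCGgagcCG
Foxn4: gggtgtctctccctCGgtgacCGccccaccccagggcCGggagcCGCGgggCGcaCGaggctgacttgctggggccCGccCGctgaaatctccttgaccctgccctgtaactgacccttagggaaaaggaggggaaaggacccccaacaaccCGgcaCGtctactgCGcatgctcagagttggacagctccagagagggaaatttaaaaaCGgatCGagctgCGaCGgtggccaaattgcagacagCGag
Foxp4: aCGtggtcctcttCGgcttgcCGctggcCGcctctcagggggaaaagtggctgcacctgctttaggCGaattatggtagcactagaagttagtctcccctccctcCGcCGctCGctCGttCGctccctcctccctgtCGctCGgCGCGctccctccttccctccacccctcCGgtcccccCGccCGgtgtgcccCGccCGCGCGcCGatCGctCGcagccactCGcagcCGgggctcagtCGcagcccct
They hold 29, 16, 17 and 27 CpG, against a median of 6 in the same window over all promoters. RefSeq promoters (250 bases before to 50 after the start) were found for 29 of the 46 genes, 34 promoters in all. Their median CpG count was 22 and their median GC content 62.9%, against 7 and 52.7% over 32851 promoters. Promoters of tested genes (19, median 23 CpG, from 5 to 59) and of untested genes (15, median 16, from 3 to 31) overlapped widely in CpG count.

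A forkhead core motif, GTAAACA on either strand (TGTTTAC on the other), was searched in the same windows. It occurred in 1 of the 34 forkhead promoters (2.94%) and in 3.65% of all promoters. That promoter was Foxa1, with the match starting 141 bases before its start site (GRCm38.p6 chr12:57546226-57546272, minus strand), shown with the motif in capitals. The match describes letters, not binding.
Foxa1: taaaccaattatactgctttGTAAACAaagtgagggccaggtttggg

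Forkhead genes stand in clusters in the mouse genome, and 2 clusters held different mixes of RANKL-higher and WENRC-higher regions. Foxf1, Foxc2 and Foxl1 follow each other on chromosome 8, with start sites 31.8 and 11.5 kb apart. From 50 kb before the first start site to 200 kb after the last there were 50 RANKL-higher regions over 49723 bp, with 56.4 tags per kb in RANKL and 20.1 in WENRC, and 0 WENRC-higher regions. Of the 50, 48 were nearest to one of the 3 forkhead genes and the others to Fendrr, the noncoding RNA gene beside Foxf1. Foxq1, Foxf2 and Foxc1 are spread over chromosome 13, with start sites 67.6 and 180.8 kb apart. The same window there held 14 RANKL-higher regions over 10780 bp (60.8 and 22.7 tags per kb) and 12 WENRC-higher regions over 7628 bp (20.8 and 52.9). The edge of this window leaves out 12 more RANKL-higher regions of Foxc1, which lie 204.7 to 249.8 kb after its start site and include the one of fold 12.22. With them the count is 26 RANKL-higher against 12 WENRC-higher regions, where the whole genome had 35798 and 13607. Foxq1, a transcribed epithelial factor at one end of that cluster, had 1 RANKL-higher region, 32658 bp from its start site. Its GRO-seq values were 7.12 and 7.07 in RANKL, 7.79 and 7.18 in ENRI, and 7.58 and 7.83 in WENRC, with RANKL lowest and the difference from WENRC of -0.61 not called (limma adjusted p = 0.159).

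**Figure D4:**
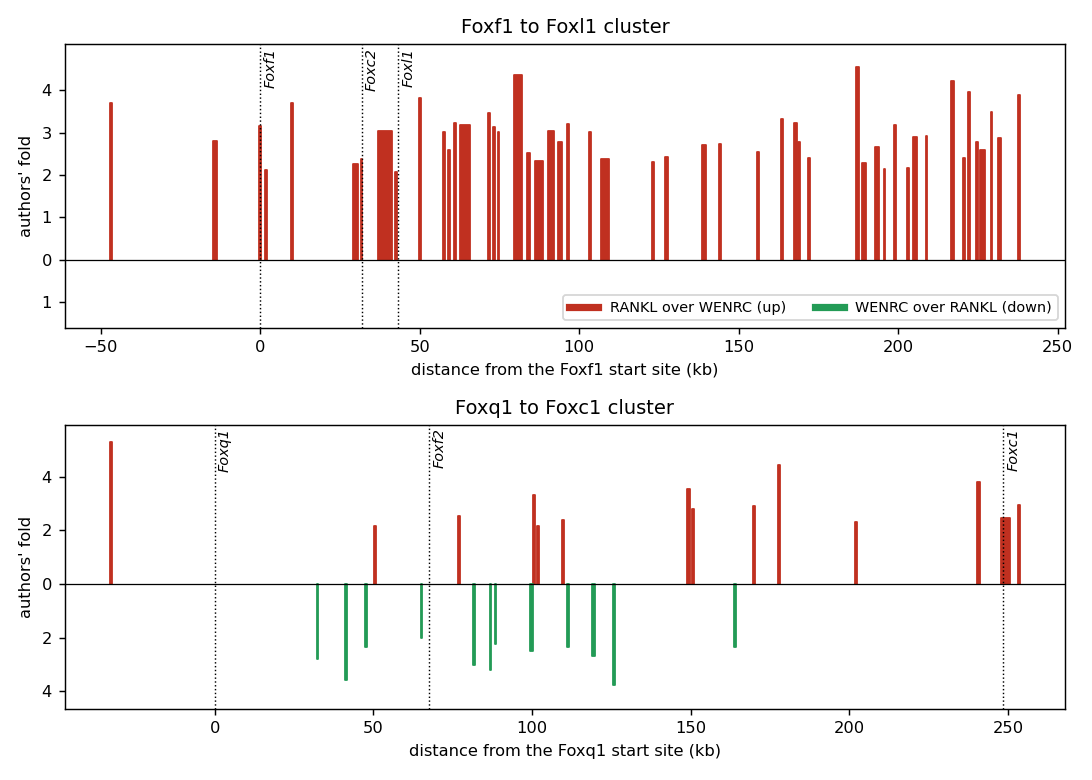
Differential H3K27me3 regions along the Foxf1 to Foxl1 cluster (top) and the Foxq1 to Foxc1 cluster (bottom), by distance from the first start site (kb); bar height is the authors' fold, upward for RANKL over WENRC and downward for WENRC over RANKL, and dotted lines mark start sites. The top panel holds 50 upward and 0 downward regions, the bottom panel 14 upward and 12 downward, without the 12 RANKL-higher regions of Foxc1 that lie past its right edge.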

How the data were processed

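GRO-seq was measured in 6 libraries and H3K27me3 in 3. The GRO-seq values are log2 values normalized by the authors: per the file headers, reads over whole RefSeq genes (mm9, 1 transcript per gene) were summed with HOMER and passed to its differential expression step for all pairs of cultures, and the submitters' processing notes name Bowtie2 2.3.4.1, HOMER and DESeq2. From their shape the values look like a regularized logarithm, a step no header names. Fold changes, p-values and adjusted p-values of the authors' deposited table are given as such, with the sign turned to first minus second culture. Regions are HOMER peaks of one culture against the other, per the file headers. The deposited RANKL tags are counts and the deposited WENRC tags a signal scaled by 0.9 with a floor of 0.5. The authors' fold is a ratio of these, their p-value was at most 9.87e-05, and the depth was 32.7 M tags at the RANKL scale.

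From these, limma 3.58.1 (R 4.3.3) was run on the log2 values with a variance trend and all 6 libraries in 1 fit of 3 group means, for the 16563 genes with at least 2 libraries at log2 of 10 or more. It was tested on simulated data. Two-sided p-values were adjusted over all tested genes by the Benjamini-Hochberg method. Every forkhead gene was accounted for, with per-library values for genes called in any comparison and the 5 of highest mean. For the mark, genes with the 8 largest covered lengths per table or a region within 1 kb were named, and from each list the 2 genes of smallest p per direction, except a result that is not reported here. Foxp2, Foxp3, Foxo6's and Foxq1's values were added after they were seen. The members and lists were chosen with earlier results of these data known. The mouse numbers pair WENRC with ENRI libraries, per the labels (correlation of deviations from the group means 0.41 over 16563 genes; the header's dates follow the mice). RANKL numbers pair nothing. Columns of per-sample values without a sample numbered 0. Alternatives were other filters, scalings, fits and left-out libraries.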

Additional observations from a re-analysis of the deposited data

How the results depend on the processing

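Over the 48 called changes followed for forkhead and listed genes, 0 of 718 repeats under the alternatives turned the direction and 210 lost the call. Counts of called forkhead genes that moved by over 1.5 times were as follows. Fits of only the 4 libraries compared called 4 genes between RANKL and ENRI, 9 between RANKL and WENRC and 0 between WENRC and ENRI. That last comparison had 9 genes at an unadjusted p under 0.05 by limma, and 4 calls in the authors' deposited table. Over all 16563 genes these fits called 1925, 5194 and 0. With a replicate block as well the forkhead counts were 1, 7 and 0 (8 at an unadjusted p under 0.05 by limma). Over all genes they were 1423, 4686 and 124. With the replicate block over all 6 libraries, 1 was called between WENRC and ENRI, which share mice; for RANKL, which shares only a number (correlations of -0.20 with ENRI and -0.32 with WENRC), it gave 6 and 3. Upper quartile recentring gave 7 between WENRC and ENRI (3043 over all genes), and the adjusted p of the authors' deposited table called 8 between RANKL and WENRC. Leaving out each library in turn gave 0 to 8, 0 to 9 and 0 to 9, where the lone library was assumed to vary like the other groups. The 228 RANKL-higher regions became 24 at a fold of at least 4, 129 at a p of at most 1e-06, 34 within 5 kb and 9 within 1 kb; the 49 WENRC-higher regions became 8, 15, 4 and 2. The cause of the moved gene counts was not tested. The stricter region settings keep fewer regions by definition. With 2 libraries per culture and compressed low values, modest changes of low genes could not be resolved, and the mark has no replicate check, with pooled RANKL libraries against 1 WENRC library.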
